A study of Saccharomyces cerevisiae BY4741 with 4 samples.

Results

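Box C/D small nucleolar RNAs (snoRNAs) and the proteins bound to all of them were compared between total RNA and poly(A) RNA of budding yeast. The members were the count-table lines whose identifier begins with snR and a number, without joined lines, spliceosomal snRNAs and box H/ACA snoRNAs. The genes NOP1, NOP56, NOP58 and SNU13 were added, which gave 47 snoRNAs and 4 protein genes, 51 of the 7382 features in the table. All libraries came from Saccharomyces cerevisiae BY4741, a haploid laboratory strain labelled wild type that carries auxotrophic deletions, in exponential growth in YPD, a rich glucose medium, at an OD600 of 0.6. No mutant, treatment or time course was part of the design. The total RNA group held hot-phenol RNA, treated with DNase and not depleted of ribosomal RNA (rRNA). The poly(A) RNA group held RNA bound to oligo-dT beads and then depleted of residual rRNA with a commercial kit. Each group had 2 libraries, called biological replicates, and the labels do not say whether a replicate number links the fractions. Fragmented RNA was primed with random hexamers and read as single ends of 50 bases. In bulk RNA, fewer molecules per cell and fewer cells with a molecule cannot be told apart.

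Box C/D snoRNAs are short stable RNAs named for the C box, TGATGA in the DNA, near the 5′ end and the D box, CTGA, near the 3′ end. Most of them base-pair with pre-rRNA next to a D box, and the methyltransferase Nop1 (fibrillarin in animals) methylates the ribose of the target base opposite the fifth guide base upstream of that box. Snu13 binds the kink-turn formed by the boxes, and Nop56 and Nop58 hold the particle together. U3 and U14 are needed for cleavage of pre-rRNA, and snR4 and snR45 guide acetylation of 18S rRNA by Kre33. Yeast snoRNAs come from separate genes, from clusters cut out of a shared precursor, or from introns. Mature snoRNAs are not polyadenylated, whereas precursors and RNAs sent to decay can carry short tails.

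All 47 snoRNAs were matched by name to the RefSeq annotation of build R64, the build named in the submitters' processing notes. Their annotated lengths ran from 78 to 490 bases with a median of 98. In the first 30 bases TGATGA was present in 37 of 47 members (78.7%), and in the last 30 bases CTGA was present in 45 (95.7%), both searched on the gene's strand only. Both motifs were present in 37 members, in 0 of 29 box H/ACA snoRNAs and in 10 of 6001 nuclear protein-coding genes (0.167%) in the same windows. A missing match says only that these letters are not in the window. For 43 members the annotation names 55 methylation sites, and for 3 members the sites are predicted only. A perfect duplex of 10 to 16 base pairs that placed an annotated site opposite the fifth base upstream of a CTGA was found for 28 sites of 27 members, 20 in 25S rRNA and 8 in 18S rRNA.

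The guides for neighbouring bases of 25S rRNA show how the boxes set the target, and their members differ in how they are made. snR39 lies in an intron of RPL7A (chromosome VII:365163-365251, minus strand) and snR59 in an intron of its paralog RPL7B (chromosome XVI:173827-173904, plus strand), and both are annotated to A807. snR39B is a separate gene (chromosome VII:366374-366469, minus strand) annotated to G805. The snoRNAs are written 5′ to 3′ as DNA from RefSeq R64, with the C and D boxes in capitals.
snR39: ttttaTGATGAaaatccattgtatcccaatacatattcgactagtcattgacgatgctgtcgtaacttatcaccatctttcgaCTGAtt
snR59: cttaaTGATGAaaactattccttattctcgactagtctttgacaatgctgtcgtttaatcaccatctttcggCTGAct
snR39B: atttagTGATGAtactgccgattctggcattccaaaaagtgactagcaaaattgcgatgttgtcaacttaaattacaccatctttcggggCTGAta

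Over their whole length snR39 and snR59 were 74.4% identical, and snR39 and snR39B were 68.3% identical. The stretches of 25S rRNA that pair with these guides are written 5′ to 3′ with the annotated methylated base in capitals.
target of snR39: cgaAagatggtga
target of snR59: ccgaAagatggtga
target of snR39B: cccGaaagatggtg
The complement of the same run of target bases stands in all 3 guides. In snR39B the run ends farther from the D box, so that the fifth base falls on G805 and not on A807.

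snR190 and U14 (snR128) are neighbours on chromosome X and are cut from a shared precursor. They are shown because their counts stood far apart in total RNA and close together in poly(A) RNA, as described further on. snR190 lies at chromosome X:139761-139950 and U14 at chromosome X:139566-139691, both on the minus strand.
snR190: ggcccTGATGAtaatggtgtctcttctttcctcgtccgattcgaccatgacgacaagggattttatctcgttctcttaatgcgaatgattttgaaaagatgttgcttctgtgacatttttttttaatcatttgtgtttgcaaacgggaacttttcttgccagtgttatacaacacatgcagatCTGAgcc
snR128: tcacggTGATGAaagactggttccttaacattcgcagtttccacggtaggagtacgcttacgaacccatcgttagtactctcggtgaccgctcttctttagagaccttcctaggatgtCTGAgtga

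Replicates 1 and 2 held 53746838 and 75955489 counts as total RNA libraries and 52851542 and 53180654 counts as poly(A) libraries. Nuclear rRNA took 96.4% of counts in both total RNA libraries and 0.0488% in both poly(A) libraries, so that 1689196 and 2389222 counts fell on nuclear coding genes in total RNA against 52733872 and 53059647 in poly(A) RNA. The a-cell receptor gene STE2 had 1308 and 1961 counts in total RNA and 57429 and 62048 in poly(A) RNA, and the alpha-cell receptor gene STE3 had 5 and 6 against 302 and 326. BY4741 is of mating type a. Of its auxotrophic markers, HIS3 had 124 and 145 against 4686 and 5481 counts, and LEU2, MET17 and URA3 had no line in the table used here. Levels below are counts per 1000000 counts after TMM scaling (TMM-normalised CPM), a scaling that centres the typical feature. A direction is therefore relative to the typical feature, whose median log2 difference of poly(A) over total RNA was 0.04, against 5.34 with library totals alone and 0.37 with scaling to coding counts.

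The 47 snoRNAs summed to 22152 and 28512 counts in total RNA replicates 1 and 2, against 7548 and 8204 in poly(A) RNA. A few long members held nearly all of the total RNA counts: the 10 members of 124 bases or more had 22017 and 28281, which was 99.4% and 99.2%. The other 37 members, 78 to 113 bases long, shared 135 and 231 counts in total RNA but 3612 and 3790 in poly(A) RNA, which was 47.9% and 46.2% of the poly(A) counts of the class. The division at 120 bases was chosen after the values had been seen, so that no test was made of it.

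In counts per 1000000 nuclear coding counts, the long members had 13030 and 11840 in total RNA and 74.6 and 83.2 in poly(A) RNA. The short members had 79.9 and 96.7 in total RNA and 68.5 and 71.4 in poly(A) RNA. The short members thus stood to coding counts nearly as they did in the other fraction, and the long ones did not. The median short member had 2 and 3 counts in total RNA, where the highest had 19 and 38, and 40 and 45 counts in poly(A) RNA, where the highest had 669 and 763.

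**Figure D1:**
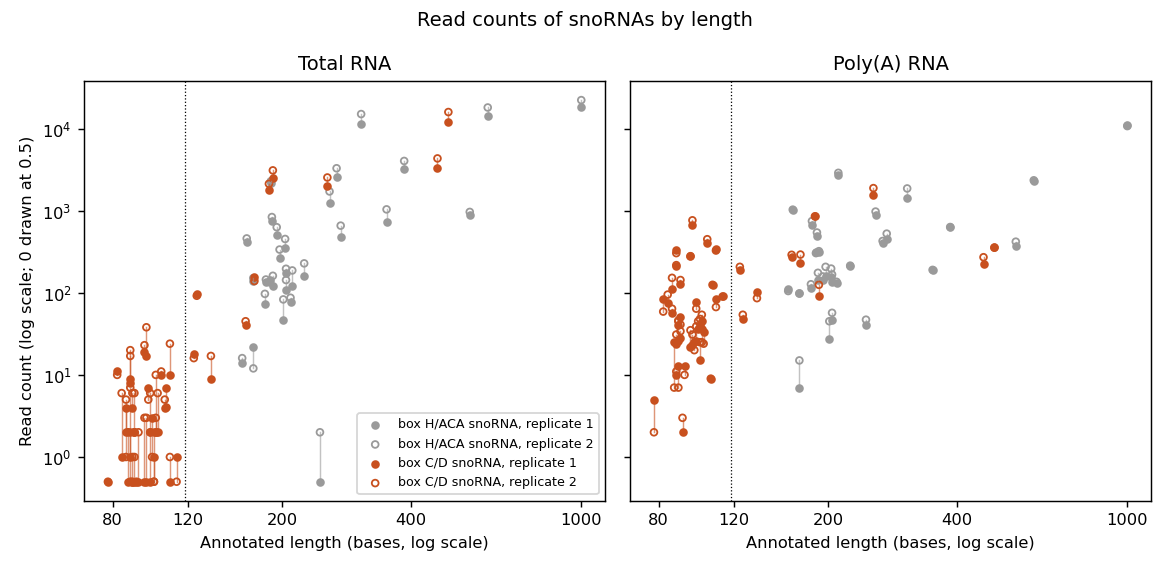
Counts of each of the 47 box C/D snoRNAs in each library (orange) and the 29 box H/ACA snoRNAs (grey) against annotated length in bases, on log axes, with total RNA left and poly(A) RNA right. Filled and open points are replicates 1 and 2, and counts of 0 are drawn at 0.5. Right of the dotted line between short and long box C/D members their total RNA counts reach 15890, and left of it the highest is 38.

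Counts followed length over all 47 members, with Spearman's rho of 0.56 and 0.50 in total RNA against 0.45 and 0.44 in poly(A) RNA. Within the 37 short members rho was 0.12 and 0.02 in total RNA and 0.16 and 0.13 in poly(A) RNA. These are descriptions across genes that share libraries. Between replicates rho was 0.84 in total RNA against 0.98 in poly(A) RNA. Other short stable RNAs also had few counts in total RNA. The U6 spliceosomal RNA, 112 bases long, had 0 and 3 counts, and the 192 tRNA features together had 67 and 69. How multiply matching reads were handled is not given, so tRNA counts may not be comparable with those of single-copy genes. Whether recovery of short RNA in the libraries had a part in the level of the short snoRNAs was not tested.

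Of the 47 snoRNAs, 42 passed the filter on low counts and 5 did not. By edgeR's quasi-likelihood test with Benjamini-Hochberg adjustment at 0.05, 19 were lower in poly(A) RNA than in total RNA and 0 were higher, against 31.2% lower and 31% higher of the 6945 features tested. DESeq2's Wald test also called 0 higher, and 1 member, snR48, was higher at an unadjusted edgeR p under 0.05. Of the 42, 31 reached the minimum through the poly(A) libraries only and 9 of these were lower, whereas 11 reached it in both total RNA libraries and 10 of these were lower. Of the members tested, all 10 long ones were lower. With division by library totals only, CPM was higher in both poly(A) libraries than in both total RNA libraries for 41 members and lower for 5. Of all features, 97.5% were higher and 1.12% lower.

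U3, the guide of the first pre-rRNA cleavages, is encoded by SNR17A and SNR17B, whose annotated spans include an intron. snR17a (chromosome XV, 780107 to 780596) had 12097 and 15890 counts in total RNA and 359 and 354 in poly(A) RNA. snR17b (chromosome XVI, 281056 to 281517) had 3301 and 4328 against 225 and 271. Both were high in both total RNA libraries, with no overlap between the fractions.

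In TMM-normalised CPM the level of snR17a was 1366 ± 33.0 (SD, n = 2) in total RNA, against 1.07 ± 0.0255 (SD, n = 2) in the poly(A) fraction, a log2 difference of -10.32 (SE 0.11, edgeR adjusted p = 4.16e-26). For snR17b the difference was -8.97 (SE 0.11, edgeR adjusted p = 8.87e-25). The copies were 81.6% identical over the annotated genes, and 8.16% of the 50-base stretches of snR17a and 8.72% of those of snR17b occurred elsewhere in the genome, so that reads of one copy can be counted for the other. The count of snR17a also lies where the reading frame IRC13 is annotated.

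The U3 genes held 70.2% ± 0.990 (SD, n = 2) of box C/D counts in total RNA, against 7.68% ± 0.0841 (SD, n = 2) in the poly(A) fraction, a 9.15-fold difference. Divided by annotated length, U3 was 48.2% and 49.8% of the class in the total RNA replicates and 2.19% in each poly(A) library. The libraries of the fractions did not overlap. The exact two-sided permutation test gave p = 0.333, the smallest value that 2 against 2 libraries allow, as for every share that follows.

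snR190, annotated to G2395 of 25S rRNA, had 2484 and 3095 counts in total RNA and 91 and 125 in poly(A) RNA. Its log2 difference was -9.72 (SE 0.13, edgeR adjusted p = 2.26e-24), next after snR17a in size. U14, which is needed for processing of 18S rRNA and also guides its methylation at C414, had 96 and 92 counts in total RNA and 48 and 54 in poly(A) RNA. Its level was 9.40 ± 2.30 (SD, n = 2) and 0.153 ± 0.0106 (SD, n = 2) TMM-normalised CPM, a log2 difference of -5.91 (SE 0.23, edgeR adjusted p = 1.9e-15). Per kilobase of gene, snR190 had 13070 and 16290 counts in total RNA against 761.9 and 730.2 for U14, while in poly(A) RNA it had 478.9 and 657.9 against 381 and 428.6. The 2 RNAs printed above, cut from 1 precursor, were thus far apart in total RNA and near each other in poly(A) RNA.

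The acetylation guides snR4 and snR45 both fell in poly(A) RNA. snR4 (chromosome V, 424698 to 424883) had 1809 and 2124 counts in total RNA and 868 and 853 in poly(A) RNA, a log2 difference of -6.23 (SE 0.10, edgeR adjusted p = 1.3e-22). snR45 (chromosome XVI, 821732 to 821903) had 154 and 139 counts against 228 and 292, and a log2 difference of -4.21 (SE 0.19, edgeR adjusted p = 1.51e-14). The pair, at similar lengths of 186 and 172 bases, stood farther apart in total RNA than in poly(A) RNA. The raw counts of snR45 were higher in poly(A) RNA, and without TMM scaling its log2 difference was 1.09.

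Besides snR190, the methylation guide snR63, 255 bases long and annotated to A2256 of 25S rRNA, stood apart from the others in total RNA. Its counts were 2008 and 2535 in total RNA and 1551 and 1882 in poly(A) RNA, a level of 222.4 ± 11.6 (SD, n = 2) against 5.14 ± 0.630 (SD, n = 2) TMM-normalised CPM. The log2 difference was -5.43 (SE 0.10, edgeR adjusted p = 1.45e-21), and it was the member with the most counts in both poly(A) libraries. With library totals in place of TMM its difference was -0.13, and the call was lost. Together with U3, snR4 and snR190, snR63 held 98.0% and 98.1% of box C/D counts in total RNA, against 41.0% and 42.5% in poly(A) RNA. Apart from snR63, snR190 and U14, the long members annotated to a methylation site had under 50 counts in each total RNA library. snR70, a guide for C1639 of 18S rRNA, had 41 and 45 counts against 276 and 290 in poly(A) RNA, with a log2 difference of -2.31 (edgeR adjusted p = 8.85e-09). snR68 (9 and 17 counts in total RNA) and snR13 (18 and 16) had up to 101 and 207 counts in poly(A) RNA. They differed by -2.17 and -1.48 on the log2 scale and also passed the test.

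Ranked per kilobase in total RNA, snR17a led with 2788 ± 67.3 (SD, n = 2) TMM-normalised CPM per kilobase, followed by snR190 (1439), snR4 (1041), snR63 (872.1) and snR17b (806). The replicate ranges of neighbours in this order did not overlap. A wide step followed to snR45 (85.6) and U14 (74.6), whose ranges overlapped, and then to snR39B (26.9). In poly(A) RNA the order on the same scale was snR39B (22.3 ± 1.76, SD, n = 2), snR63 (20.2), snR4 (13.9), snR60 (12.2) and snR57 (10.8). There only snR39B and snR63 overlapped among these neighbours. snR17a held place 18 and snR190 place 23 of 47.

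snR39B, the single-gene guide for G805 printed above, led the short members in all 4 libraries except total RNA replicate 1, where snR41 had 19 counts. It had 17 and 38 counts in total RNA and 669 and 763 in poly(A) RNA. Its level was 2.58 ± 0.890 (SD, n = 2) TMM-normalised CPM in total RNA, against 2.15 ± 0.169 (SD, n = 2) in the poly(A) fraction, and the difference of -0.31 (SE 0.24, edgeR adjusted p = 0.261) did not pass the test. It changed sign, to 0.14, without total RNA replicate 2. snR60, a guide for A817 and G908 of 25S rRNA (chromosome X, 349130 to 349233), had 10 and 11 counts against 401 and 449, with a log2 difference of 0.32 (SE 0.32, edgeR adjusted p = 0.417). snR57, a guide for G1572 of 18S rRNA, had 8 and 20 against 328 and 304, with -0.52 (SE 0.33, edgeR adjusted p = 0.175). With so few total RNA counts these standard errors do not show that the levels were alike.

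Members with the highest poly(A) level relative to total RNA rested on 1 to 4 total RNA counts, snR24 among them, which is given with its host. snR48, a guide for G2791 and G2793 of 25S rRNA, had 1 and 0 counts in total RNA and 92 and 90 in poly(A) RNA, a normalised ratio of 5.60 with an exact 95% counting interval of 0.993 to 222.5 (edgeR adjusted p = 0.0625). snR87, a guide for A436 of 18S rRNA, had 0 and 1 against 85 and 67, a ratio of 4.68 (0.827 to 186). snR61 (0 and 1 against 28 and 34) had a ratio of 1.91 (0.330 to 76.6) and snR65 (2 and 0 against 40 and 48) 1.35 (0.364 to 11.4). All 4 intervals held 1, and they cover counting error only. snR71, a guide for A2946 of 25S rRNA, had 2 and 2 counts against 128 and 143, with a log2 difference of 1.06 (SE 0.67, edgeR adjusted p = 0.179).

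Among the 32 short members tested, 9 were lower, a share near the 31.2% of all features. The largest differences were those of snR74, a guide for A28 of 18S rRNA (1 and 7 counts against 10 and 11), at -3.60 and snR40, a guide for U898 of 25S and G1271 of 18S rRNA (7 and 5 against 25 and 20), at -3.10 on the log2 scale. snR64, snR67, snR41, snR77 and snR76 followed with -2.66, -2.26, -1.29, -0.98 and -0.71, and the intron members snR18 and snR39 are given with their hosts. Each of these 9 rested on at most 42 counts over both total RNA libraries. Of the members that were not tested, snR53 had 0 and 0 counts in total RNA and 2 and 3 in poly(A) RNA, and snR59 had 0 and 0 against 5 and 2. snR75 had 0 and 0 against 13 and 7, snR78 had 0 and 2 against 25 and 7, and snR73 had 4 and 5 against 9 and 9. For a count of 0 the total RNA libraries allow up to 3 counts each, and no ratio was formed against it.

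**Figure D2:**
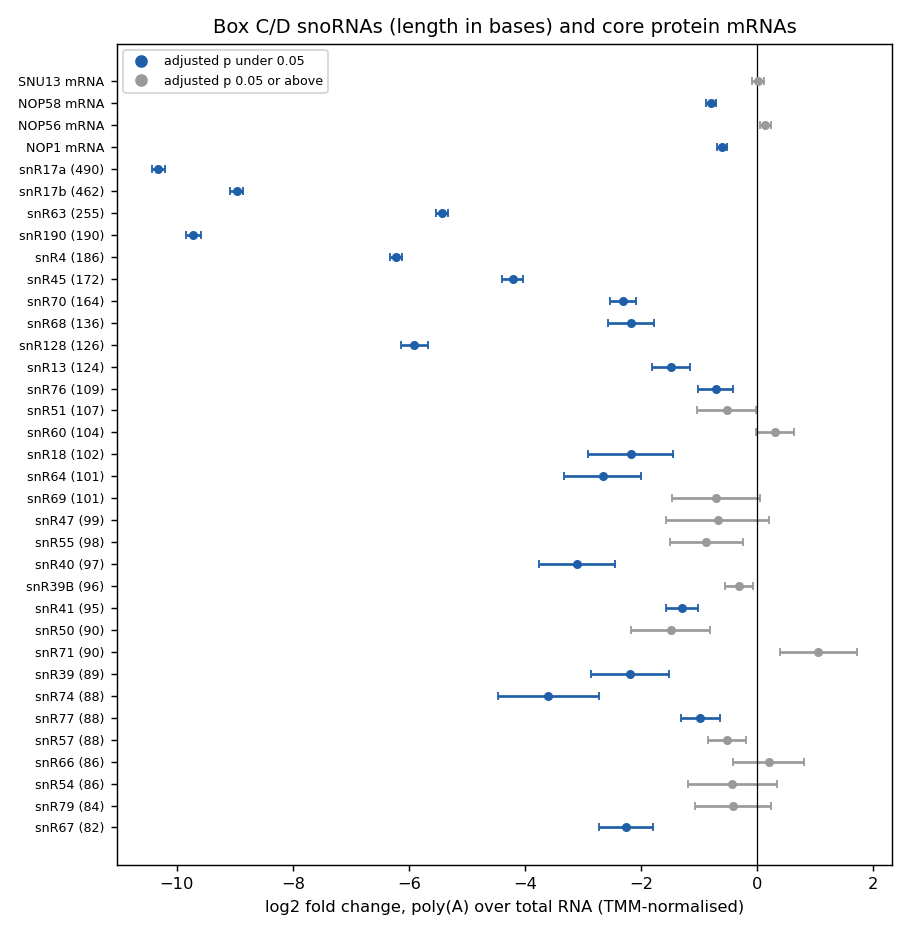
Log2 difference of poly(A) over total RNA for the core protein mRNAs and each tested box C/D snoRNA, by length in bases, from edgeR. The snoRNAs shown had more than 3 total RNA counts, and bars are the standard error derived from the F statistic. Blue points have an adjusted p under 0.05. U3, snR190, snR4, U14 (snR128) and snR63 lie at -5.43 or lower, and snR71 lies highest at 1.06.

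Of the 47 genes, 6 lie in introns, 17 in clusters and 24 stand alone. The intron members had the lowest sum: 10 and 17 counts in total RNA and 183 and 216 in poly(A) RNA. Their share of box C/D counts was 0.0524% ± 0.0102 (SD, n = 2) in total RNA, against 2.53% ± 0.147 (SD, n = 2) in the poly(A) fraction, a 48.3-fold difference (exact permutation p = 0.333). In counts per 1000000 coding counts, however, the intron members had 5.92 and 7.12 in total RNA and 3.47 and 4.07 in poly(A) RNA. The rise in share thus went with the fall of the long members. It was not particular to intron members, which are all short. Short members in clusters rose from 0.32% and 0.42% in total RNA to 20.7% and 18.1% in poly(A) RNA. Short members that stand alone rose from 0.24% and 0.33% to 24.8% and 25.5%. Without the U3 genes in the sum the intron shares differed 15.5-fold, and with counts divided by length 19.9-fold.

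snR18, in an intron of EFB1, which encodes an elongation factor subunit, had 2 and 6 counts in total RNA and 33 and 24 in poly(A) RNA. Its log2 difference was -2.18 (SE 0.73, edgeR adjusted p = 0.0138), while EFB1 itself, with 1992 and 2842 against 102570 and 97425 counts, rose by 0.35 (edgeR adjusted p = 0.0003). snR39, in RPL7A, had 4 and 6 counts against 26 and 45 and a log2 difference of -2.19 (SE 0.68, edgeR adjusted p = 0.00782), and RPL7A differed by 0.14 (edgeR adjusted p = 0.135). Both snoRNAs fell and neither host was called lower. Neither call held in every set of 3 libraries: snR18 missed the threshold without total RNA replicate 2 and without poly(A) replicate 2, and snR39 without total RNA replicate 2 and without poly(A) replicate 1.

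The other intron members were not called. snR24, in an intron of ASC1, which encodes a ribosomal scaffold protein, had 0 and 1 counts against 40 and 46, a normalised ratio of 2.65 (exact 95% counting interval 0.463 to 105.8). snR38, in TEF4, had 0 and 3 against 22 and 35, a ratio of 0.585 (0.190 to 2.92). snR54, in IMD4, had 4 and 1 against 57 and 64 and a log2 difference of -0.43 (SE 0.77, edgeR adjusted p = 0.655), whose sign changed to 1.10 without total RNA replicate 1. snR59, the partner of snR39 with the same annotated target, had no count in total RNA and 5 and 2 in poly(A) RNA. Of the 6 host mRNAs, ASC1 (0.38) and EFB1 were higher, TEF4 (-0.53) and IMD4 (-0.32) lower, and RPL7A and RPL7B (0.11) not called, shares near the 31% and 31.2% of all features. With scaling to coding counts IMD4 stood at -0.001 and lost its call.

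Members cut from a shared precursor had unequal counts per kilobase. In the 7-gene cluster on chromosome XIII (297278 to 298651, plus strand), snR77 and snR76 had 2398 and 2466 and 3174 and 3000 poly(A) counts per kilobase. On their own lines the other 5, snR78, snR75, snR74, snR73 and snR72, lay between 78.7 and 398. The high pair follows snR78 in the direction of transcription, so that the level did not follow the order of the genes. The joined line of snR73 with an overlapping reading frame held 56 and 65 counts in poly(A) RNA, against 9 and 9 on its own line. With that line added snR73 would lie above this range.

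In the 3-gene cluster on chromosome XVI (718700 to 719242) poly(A) counts per kilobase were 2926 and 2937 for snR41, 1683 and 1768 for snR70 and 1159 and 1168 for snR51. On chromosome XII (794486 to 795024) they were 3727 and 3455 for snR57, 785.7 and 653.1 for snR55 and 311.1 and 377.8 for snR61. Both lists are in the order of transcription, and in both the first gene was highest and the last lowest in both poly(A) libraries. In total RNA snR70, with 250 and 274.4 counts per kilobase, stood above snR41, with 200 and 242.1, so that the order of the chromosome XVI cluster differed there. In the pair on chromosome V (61352 to 61789) snR67 had 1012 and 719.5 and snR53, downstream, 22.0 and 33.0. The poly(A) ranges of neighbours did not overlap in these 3 clusters.

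**Figure D3:**
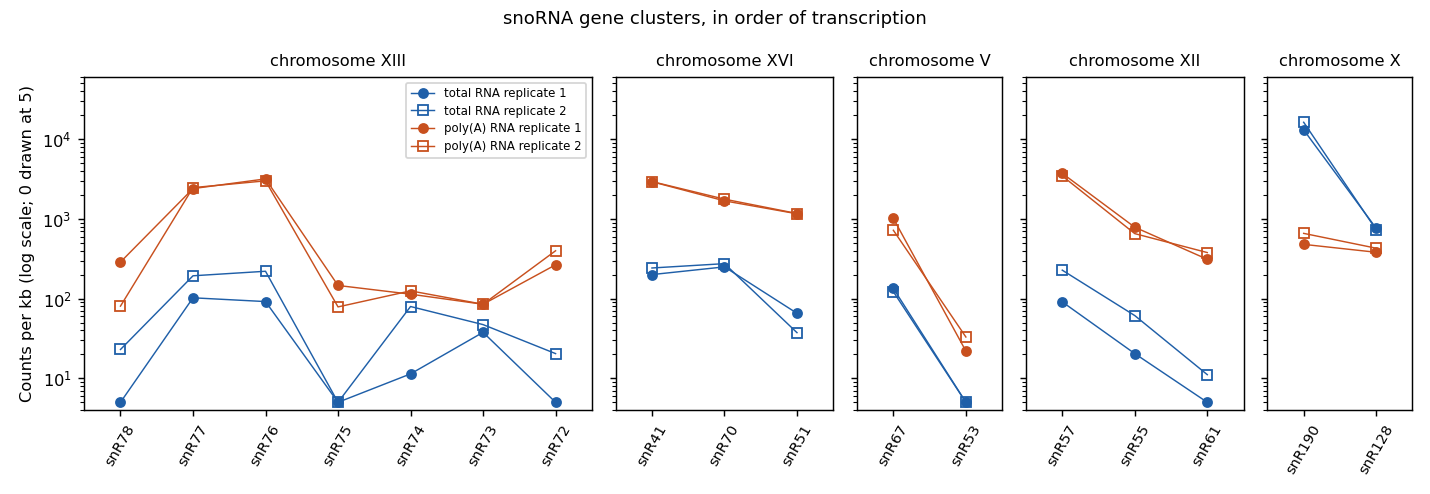
Poly(A) and total RNA counts per kilobase on a log axis for the snoRNAs of the 5 clusters, in the order of transcription, 1 point per library, with 0 drawn at 5. snR76 and snR77 stand above their neighbours in the 7-gene cluster, and snR190 and U14 are far apart in total RNA and near each other in poly(A) RNA.

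Against the other large class of guides, the box H/ACA snoRNAs that direct pseudouridine formation, box C/D snoRNAs as a class had fewer counts in both fractions. The ratio of the class sums was 0.383 ± 0.00621 (SD, n = 2) in total RNA, against 0.312 ± 0.0105 (SD, n = 2) in the poly(A) fraction (exact permutation p = 0.333). Without the U3 genes it was 0.114 and 0.288, the opposite direction. The 29 H/ACA members are longer than the short box C/D members, up to 1004 bases. In poly(A) RNA 28 of them were lower, with a median log2 difference of -5.69, where 31.2% of all features tested were lower. The exception, snR10, had 0 and 2 counts against 40 and 47 on its own line, and most of its reads stood in a joined line (5697 and 5923 against 1499 and 1588). Within the lengths both classes share, 5 box C/D members of 164 to 255 bases had a median of -5.43, with 5 lower, and 20 H/ACA members of up to 245 bases a median of -5.10, with 19 lower. The 5 values ran from -9.72 to -2.31, and no difference between the classes was tested. On single-gene lines in this range the 5 box C/D members had more total RNA counts, 6496 and 7938, than the 20 H/ACA members, 5795 and 6636. They had fewer poly(A) counts, 3014 and 3442 against 7075 and 7578. These H/ACA sums hold snR10 by its own line only. With its joined line added, the H/ACA members would have more counts in total RNA too, so that the order there rests on its omission.

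As a share of all counts, box C/D snoRNAs made up 0.0394% ± 0.00260 (SD, n = 2) of total RNA libraries and 0.0149% ± 0.000810 (SD, n = 2) of poly(A) libraries, 2.65-fold less (exact permutation p = 0.333). Of counts outside nuclear rRNA they were 1.09% and 0.0149%, a 73.1-fold difference. Without the U3 genes the share of all counts was 0.0117% in total RNA against 0.0137% in poly(A) RNA. The direction of the share of all counts thus rested on U3.

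**Figure D4:**
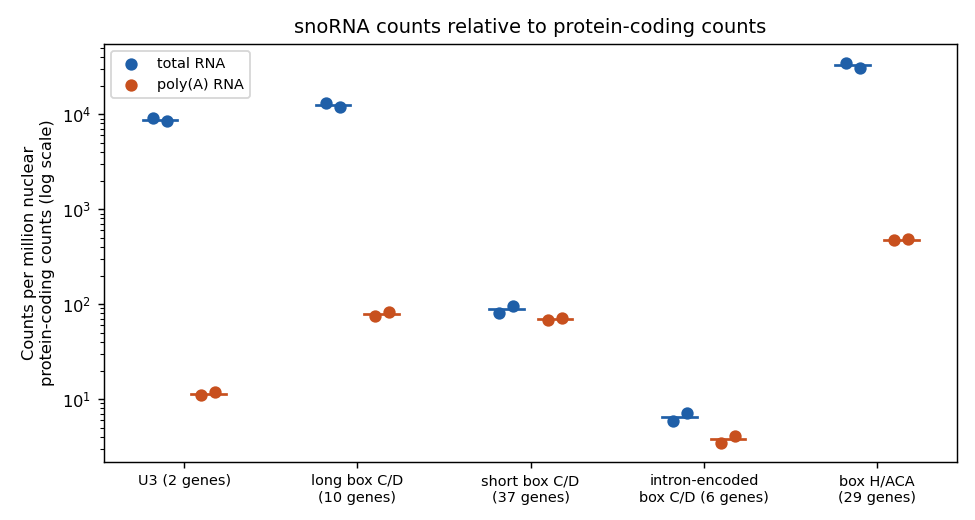
Groups of snoRNAs, in counts per 1000000 nuclear coding counts on a log axis, in the 4 libraries, 1 point per library. Short lines are means. The long box C/D members stand at 13030 and 11840 in total RNA and 74.6 and 83.2 in poly(A) RNA, and the short ones between 68.5 and 96.7 in all 4 libraries.

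The mRNAs of the 4 core proteins were present in both fractions, and none differed by a factor near that of U3. NOP1, the methyltransferase (chromosome IV, 427364 to 428347), had 750 and 1115 counts in total RNA and 19398 and 20274 in poly(A) RNA. Its level was 90.2 ± 5.71 (SD, n = 2) and 59.4 ± 1.03 (SD, n = 2) TMM-normalised CPM, a log2 difference of -0.60 (SE 0.08, edgeR adjusted p = 1.08e-06). NOP58 (chromosome XV, 896825 to 898360) had 529 and 668 against 11462 and 11040 counts and fell by 0.79 on the log2 scale (SE 0.09, edgeR adjusted p = 4.96e-08). For both the fractions did not overlap in normalised level, total RNA being higher. With scaling to coding counts NOP1 stood at -0.28 and NOP58 at -0.47, and both still passed.

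NOP56, the partner of NOP58 (chromosome XII, 546097 to 547611), had 564 and 900 against 27712 and 24371 counts, with a log2 difference of 0.14 (SE 0.09, edgeR adjusted p = 0.185). It passed the test as higher without total RNA replicate 2, at 0.28, and without poly(A) replicate 2, at 0.26. SNU13, whose protein is also part of the U4/U6.U5 spliceosomal particle (chromosome V, 101943 to 102323), had 215 and 256 against 7376 and 8153 counts and a log2 difference of 0.01 (SE 0.10, edgeR adjusted p = 0.918). The normalised levels of NOP56 and SNU13 overlapped between the fractions. Reads from the stretches where NOP56 and NOP58 overlap a neighbouring reading frame stand in joined lines and are not in these counts. Of the 4 mRNAs, 2 were lower and 0 higher, against 31.2% and 31% of all features. None was higher at an unadjusted edgeR p under 0.05 or by DESeq2's Wald test.

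Among the 7 assembly factors of box C/D particles, 6 were higher in poly(A) RNA, 0 were lower and BCD1 was not called, where 31% of all features were higher and 31.2% lower. Their median log2 difference was 0.83 against 0.04 over all features. PIH1 (1.37) and TAH1 (1.11), which work with the helicases Rvb1 and Rvb2, and HIT1 (0.85), which works with Rsa1 and Bcd1, had the largest differences. PIH1 rested on 10 and 31 total RNA counts, and its difference was 0.98 without total RNA replicate 1 and 2.17 without replicate 2. The HIT1 call was lost without total RNA replicate 1. The 4 H/ACA core proteins had a median of 0.74, with NOP10 (1.18), NHP2 (0.90) and GAR1 (0.57) higher and CBF5 not called. Of 7 proteins of the U3 particle, IMP4 (1.32) and LCP5 (0.33) were higher, ECM16 (-0.52), which encodes a helicase, was lower, and 4 were not called, IMP3 (0.33) among them, so that both shares were near or below those of all features. The ECM16 call was lost with scaling to coding counts, at -0.20, where IMP3 passed at 0.66.

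Of 13 genes for forming and trimming snoRNA ends, 5 were lower and 3 higher, shares not far from the 31.2% and 31% of all features, with a median of 0.20. The lower ones included all of the genes of the Nrd1-Nab3-Sen1 complex, which ends transcription of snoRNA genes. NRD1 had 395 and 680 counts in total RNA and 2299 and 2559 in poly(A) RNA, a log2 difference of -2.83 (SE 0.11, edgeR adjusted p = 1.09e-15). NAB3 and SEN1 differed by -1.72 and -1.48. MTR4 and RAT1 were also lower, and AIR1, LHP1 and the endonuclease gene RNT1 were higher.

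**Figure D5:**
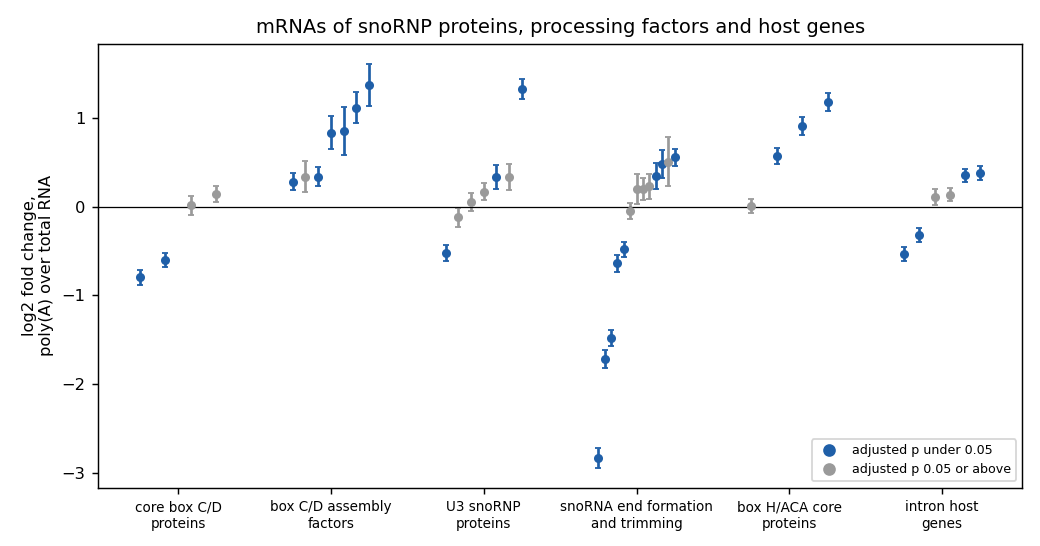
Log2 difference of poly(A) over total RNA from edgeR for mRNAs of core proteins, assembly factors, U3 proteins, end-processing factors, H/ACA core proteins and intron hosts. Bars are the standard error derived from the F statistic. Blue points have an adjusted p under 0.05. The lowest point is NRD1 at -2.83 and the highest is PIH1 at 1.37.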

How the data were processed

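RNA of BY4741 yeast was sequenced as 2 total RNA and 2 poly(A) RNA libraries. The deposited values are raw whole-number counts per annotated feature, made by the authors. The submitters' processing notes name the tools Bowtie2 2.3.4.3, cutadapt 1.18 and FastQC 0.11.8 with build R64, but no role for them. How reads were assigned to features, whether strand was used and what became of multiply matching reads are not given in the sources used here. Joined names (622 of 7382 features) hold reads where genes overlap and were left out of single-gene values. Lines that name no gene numbered 5 and were empty.

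All features were tested in R 4.3.3 with edgeR 4.0.16 on the counts: filterByExpr, TMM, quasi-likelihood F test, Benjamini-Hochberg adjustment at 0.05, with only the fraction as a term. TMM factors were 0.162 and 0.156 for total RNA and 6.25 and 6.34 for poly(A) RNA. Common biological variation was 0.0612. The F test gives no standard error. Each SE printed with an edgeR log2 difference is its absolute value divided by the square root of F, which is approximate where counts are few. Fitted differences of members with 1 to 3 total RNA counts depend on the prior count, so that ratios with exact 95% binomial intervals are given, scaled by effective library size. Those intervals, and the limit of 3 counts for a 0, cover counting error only, since amplified reads carry no molecular identifiers and are not independent. Shares were compared by exact two-sided permutation tests (scipy 1.17.1). P-values measure the spread between these libraries, which the labels call biological replicates without saying from which cultures. Sequences and coordinates came from RefSeq R64 and matched the counts by name. The script was tested on simulated counts of coding features only. There 85.7% of 2-fold changes, 63.6% of 1.5-fold changes and 0.108% of unchanged features were called. The simulation held no snoRNAs, so that it does not cover their calls.

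The members, gene lists, tests and rule for named genes were chosen with earlier results of these data known. The rule took U3, U14, snR190, snR4, snR45, the core proteins, intron members and hosts, members not tested, the 5 highest per kilobase in each fraction, the 6 smallest and 6 largest differences, and up to 3 genes per list with the largest differences. snR70, snR68, snR13 and other members called lower were named as well, after their values had been seen.
Alternatives were library totals, scaling to coding counts, DESeq2 1.42.0 size factors and its Wald test, no filter or at least 10 counts in every library, a replicate block, and leaving out each library.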

Additional observations from a re-analysis of the deposited data

Results flagged for a closer look

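Reads outside the single-gene lines were found in 4 joined lines that hold a member, in data the comparisons did not use, each above the limit that a count of 0 allows. The line where NOP56 overlaps the reading frame YLR198C held 36262 poly(A) counts in all, 18791 and 17471 in the replicates, against 344 and 453 in total RNA. The line where NOP58 overlaps YOR309C held 11043 poly(A) counts, 5655 and 5388, against 227 and 286. The single-gene counts of NOP56 and NOP58 therefore lack the reads of these stretches. On its own line NOP56 held 52083 poly(A) and 1464 total RNA counts, and NOP58 held 22502 and 1197. A large part of their reads is thus missing from the fits. The log2 differences were not computed with these reads added, so that the missing call for NOP56 covers its own line only. The line of snR73 with YMR013W-A held 121 poly(A) counts, 56 and 65, against 11 and 16, more than the 9 and 9 against 4 and 5 on the line of snR73 itself. The line of snR60 with YJL047C-A held 53 poly(A) counts, 27 and 26, against 1 and 0.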

How the results depend on the processing

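The count of box C/D snoRNAs lower in poly(A) RNA was 19, was also 19 with a replicate block, 18 by DESeq2's Wald test and 13 to 20 with 1 library left out. It was 5 with library totals in place of TMM, where the median of all features moved to 5.34, and 12 of 14 tested with at least 10 counts in every library. The count higher was 36 with library totals and 1, snR48, with scaling to coding counts, and 0 to 1 with 1 library left out (snR48 without total RNA replicate 1). Core protein mRNAs were 0 lower and 4 higher with library totals, 2 higher (NOP56 and SNU13) with coding scaling, and 0 to 1 higher with 1 library left out. With the U3 genes left out of the sums, as members with stretches found elsewhere, the ratio of poly(A) to total RNA rose to 1.17 for the share of all counts and 2.53 for box C/D against H/ACA. Under library totals the log2 differences turned positive for NOP1 (4.71), NOP58 (4.51), TEF4 (4.78), IMD4 (4.99), ECM16 (4.79), NRD1 (2.48), NAB3 (3.59), SEN1 (3.83), snR18 (3.08), snR39 (3.08), snR39B (4.99), snR45 (1.09), snR54 (4.81) and snR57 (4.78), by the shift of the scale itself. Values near 0 changed sign elsewhere: SNU13 was -0.010 with DESeq2 size factors, -0.012 by the Wald test and -0.081 to 0.112 with 1 library left out, and snR39B was 0.011 with coding scaling and -0.58 to 0.14 with 1 left out. With 1 library left out snR54 ran from -1.33 to 1.10 and snR57 from -0.828 to 0.049. The cause was not tested. IMD4 and ECM16 lost their calls under coding scaling. Replicate numbers are not stated to link the fractions, so the numbers were not used as pairs. Deviations of same-numbered libraries had a correlation of 0.031 over features. With 2 libraries per fraction this value cannot decide whether they were paired. Few total RNA counts limit the short members: 29 of 47 had under 10 counts in both total RNA libraries. A left-out library leaves 1 sample in its group, assumed to vary like the others.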
